A study of Homo sapiens with 4 samples.

Results

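The genes described here encode the subunits, activators, inhibitor and core assembly chaperones of the proteasome. They were taken by name: every gene whose symbol is PSMA, PSMB, PSMC, PSMD, PSME, PSMF or PSMG with a number and whose probe set on the array carries that symbol alone, leaving out the inducible catalytic subunits PSMB8 and PSMB9. This gave 43 of the 18377 genes measured, 8 of the alpha ring (PSMA), 9 of the beta ring (PSMB), 5 of the ATPase ring (PSMC), 12 non-ATPase subunits and chaperones of the regulatory particle (PSMD), 4 activators (PSME), the inhibitor PSMF1 and 4 core chaperones (PSMG). PSMC5, PSMD7 and PSMD13 were not analysed here. They were measured in MOLM-14, a cell line established from a human acute myeloid leukemia: 2 samples had received the solvent DMSO and 2 had received DZNep at 2 µM, each for 24 h, in the same growth medium. DZNep, 3-deazaneplanocin A, inhibits S-adenosylhomocysteine hydrolase and through it many methyltransferases. The labels speak of biological replicates and name no separate cultures or days. A p-value here therefore compares the treatments with the spread of these samples alone, and that spread may be technical.

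The proteasome is the main protease of the cytosol and nucleus and degrades proteins tagged with ubiquitin. Its core particle is a barrel of stacked rings, with alpha subunits as outer gates and beta subunits, some of them proteolytic, inside. The regulatory particle caps the barrel: a base with an ATPase ring unfolds the substrate, and a lid removes its ubiquitin chain. Activators open the gate without ubiquitin, and dedicated chaperones assemble the parts. Subunit genes are known to be induced together when proteasome activity is low, through the transcription factor NFE2L1, which binds antioxidant response elements in their promoters, and many also carry CCAAT boxes, the site of NF-Y.

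Promoters are shown for 3 of the 4 genes that fell with DZNep (PSMA3, PSMD14 and PSMG1), and that of PSMD6 is not printed. For contrast, the beta and lid subunits with the highest fold changes, PSMB5 and PSMD12, are shown, and neither passed the test. The 5 stretches come from RefSeq (GRCh38.p14) and lie upstream of the start that its promoter table uses. Of these, 4 are the 250 bases just before that start. For PSMG1 the start used lies inside the annotated gene, so the 63 bases next to it are left out and the 187 outside the gene are shown. They run 5′ to 3′ on the gene's strand, and capitals mark matches, on either strand, to the antioxidant response element (TGACNNNGC) or the CCAAT box (CCAAT).
PSMA3, chr14:58244593-58244842, plus strand: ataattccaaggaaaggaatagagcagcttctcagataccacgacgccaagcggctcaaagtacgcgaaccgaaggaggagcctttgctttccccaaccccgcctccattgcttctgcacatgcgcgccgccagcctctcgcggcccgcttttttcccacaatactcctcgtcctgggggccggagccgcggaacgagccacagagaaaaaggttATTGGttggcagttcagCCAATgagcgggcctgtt
PSMD14, chr2:161308175-161308424, plus strand: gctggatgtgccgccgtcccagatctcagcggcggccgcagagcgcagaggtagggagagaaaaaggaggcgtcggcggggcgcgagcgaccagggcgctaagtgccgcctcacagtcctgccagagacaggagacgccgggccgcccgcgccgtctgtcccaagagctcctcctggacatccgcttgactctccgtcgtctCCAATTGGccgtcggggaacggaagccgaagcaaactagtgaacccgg
PSMG1, chr21:39183515-39183701, minus strand: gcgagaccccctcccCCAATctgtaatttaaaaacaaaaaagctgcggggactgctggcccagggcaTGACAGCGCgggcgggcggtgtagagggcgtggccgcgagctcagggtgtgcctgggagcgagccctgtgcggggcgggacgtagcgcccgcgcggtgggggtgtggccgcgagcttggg
PSMB5, chr14:23035221-23035470, minus strand: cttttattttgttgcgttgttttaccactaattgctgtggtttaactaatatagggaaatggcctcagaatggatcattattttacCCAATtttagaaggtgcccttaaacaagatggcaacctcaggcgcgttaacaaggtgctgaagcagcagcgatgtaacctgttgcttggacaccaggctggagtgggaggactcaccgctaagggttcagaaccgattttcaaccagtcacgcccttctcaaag
PSMD12, chr17:67366578-67366827, minus strand: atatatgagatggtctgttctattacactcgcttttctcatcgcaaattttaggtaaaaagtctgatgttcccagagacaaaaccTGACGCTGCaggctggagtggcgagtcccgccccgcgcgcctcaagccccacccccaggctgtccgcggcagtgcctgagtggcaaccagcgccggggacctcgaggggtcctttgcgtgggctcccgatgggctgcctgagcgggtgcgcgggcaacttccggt

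PSMA3 has CCAAT matches 35 to 31 and 18 to 14 bases before its start, and PSMD14 has matches on both strands that overlap, 48 to 44 and 45 to 41 bases before its start. PSMG1 holds a CCAAT match 235 to 231 bases before its start and an antioxidant response element match at 183 to 175. PSMD6, which also fell, has a CCAAT match at 192 to 188 bases. PSMB5 has a CCAAT match at 164 to 160 bases, and PSMD12 an antioxidant response element match at 165 to 157. Windows of 250 bases were found for 37 of the 43 genes, with the start farthest upstream used where the table lists several for a gene. The antioxidant response element letters were in 10 of the 37 (27.0%) and in 11.1% of the 27305 gene windows of that length. The CCAAT letters were in 15 of the 37 (40.5%) and in 33.0% of all windows. The letters of the C/EBP-ATF response element (TGATGNAA) of stress genes were in 0 of the 37 and in 3.19% of all. The windows of all genes include genes not measured on these arrays and were not matched to the 37 in base composition. The differences in share were not tested. All motif counts are matches of letters and not measured binding.

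The proteasome as a set changed little with DZNep, and what changed was lower. PSMD14, PSMA3, PSMG1 and PSMD6 fell, by 1.31-fold to 1.43-fold, 0 rose, and the other 39 did not pass the test (limma with Benjamini-Hochberg adjustment over all genes, threshold 0.05). At an unadjusted limma p under 0.05 there were 13 lower and 2 higher. The 4 genes are 9.3% of the set, beside 10.3% of all genes called in either direction, 6.68% lower and 3.62% higher, so the share of calls in this fit is near the background. In bulk RNA, fewer cells with a transcript and less of it per cell cannot be told apart. The direction was more uniform than the calls: for 26 of the 43 genes (60.5%) both DZNep arrays lay below both DMSO arrays, against 23.9% of all genes, and for 7 (16.3%) both lay above, against 25.9%. The median log2 fold change was −0.15, with a range of −0.51 to 0.28, and that of all genes was 0.02. Proteasome genes are bright on this array, 33 of them among the brightest 25% of genes. Among those 4594 genes the median was −0.04, 41.9% of genes had both DZNep arrays lower and 14.3% were called lower, a larger share than in the proteasome set. No test of the set was made.

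The size of the shift depended on the scaling. Quantile normalization brought the median over the 43 genes to −0.07 and cyclic loess to −0.08, while the median of all genes moved to 0.01 and 0.00. In the fit without further scaling 32 of the 43 genes had a fold change below 0, beside 8187 of all 18377 genes. PSMB3 and PSMC2, for example, were among the 32 and lay above 0 under quantile normalization. In any of the 14 alternative analyses (other filters, normalizations and variance models, and leaving out each array) 0 proteasome genes were called higher. Over all genes the share called lower was 16.1% without the dimmest 50% of genes, 9.09% with an intensity trend in the variance and 9.14% with a robust trend. Beside these shares, the number of proteasome genes called lower was 10 of 41 tested, 11 of 43 and 10 of 43. It was 2 without DZNep replicate 1 (PSMD14 and PSMG2) and 1 without DZNep replicate 2 (PSMD14), where a group holds 1 array.

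**Figure D1:**
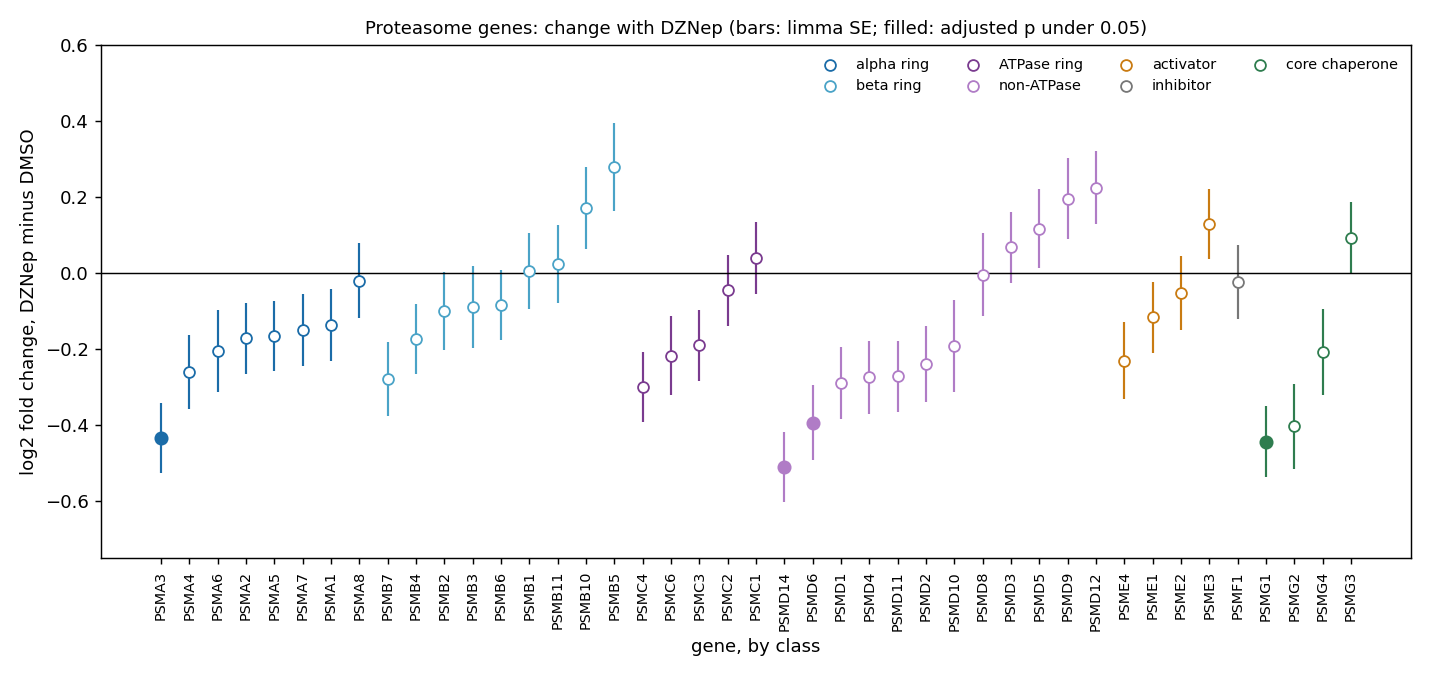
log2 fold change of each of the 43 proteasome genes, DZNep minus DMSO (y axis), by class (x axis and colour) and ranked within the class. Bars are limma standard errors and filled points passed the adjusted p of 0.05. The 4 filled points, PSMA3, PSMD14, PSMD6 and PSMG1, lie between −0.39 and −0.51, and the highest value is that of PSMB5, 0.28.

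**Figure D2:**
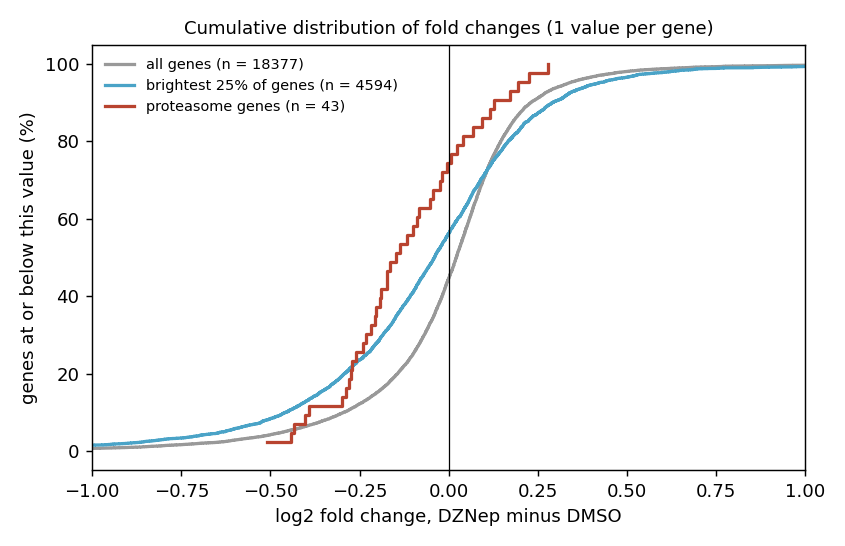
Share of genes in percent (y axis) at or below each log2 fold change (x axis) for the 43 proteasome genes, all 18377 genes and the 4594 brightest. The proteasome curve lies to the left of both others around its median of −0.15 and does not reach beyond −0.51 or 0.28.

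In the alpha ring, whose subunits form the gate of the core particle, all 8 genes had a fold change below 0, also under quantile, cyclic loess and median scaling. Of these 1 fell (12.5%, beside 6.68% of all genes and 14.3% of the brightest called lower). PSMA3 measured 10.07 and 10.07 (log2 intensity) with DMSO and 9.63 and 9.64 with DZNep. The groups were far apart relative to their spread, with a mean of 10.07 ± 0.00 against 9.63 ± 0.01 (SD, n = 2 arrays each). PSMA3 was 1.35-fold lower (−0.43 on the log2 scale, SE 0.09, adjusted p = 0.0176 by limma). The call ended without DZNep replicate 1 (adjusted p = 0.136) or replicate 2 (0.116) by limma, with the value at −0.43 and −0.44. PSMA4 came next, at 11.13 and 11.13 with DMSO and 10.93 and 10.81 with DZNep, a log2 fold change of −0.26 (adjusted p = 0.137 by limma). The groups of PSMA4 do not overlap, and it passed with an intensity trend in the variance.

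The other alpha genes of the general proteasome, PSMA6 (−0.20), PSMA2 (−0.17), PSMA5 (−0.17), PSMA7 (−0.15) and PSMA1 (−0.14), had smaller log2 fold changes, none past the test. In all 5, and in 7 of the 8 alpha genes (87.5%), both DZNep arrays were below both DMSO arrays, against 23.9% of all genes and 41.9% of the brightest. PSMA1 measured 10.93 and 10.86 with DMSO and 10.79 and 10.72 with DZNep, but its log2 fold change was −0.0026 under quantile normalization. PSMA8, the form of an alpha subunit made in testis, had log2 intensities between 4.91 and 5.02. Its groups overlap close to the lowest value of the arrays, a log2 intensity of 4.18.

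The beta ring, which holds the proteolytic sites, had 0 of 9 genes past the test (limma, 1 lower and 1 higher at an unadjusted p under 0.05), 5 with fold changes below 0 and 4 above. The 3 constitutive catalytic subunits differed in direction. PSMB5, which carries the chymotrypsin-like site, measured 8.22 and 8.27 with DMSO and 8.38 and 8.67 with DZNep. Both DZNep arrays are higher but lie apart from each other, and the log2 fold change was 0.28 (95% interval 0.02 to 0.54, adjusted p = 0.193 by limma), or 0.13 without DZNep replicate 2. PSMB7, which carries the trypsin-like site, measured 10.22 and 10.11 with DMSO and 9.89 and 9.88 with DZNep. Its groups do not overlap in the opposite direction, with a log2 fold change of −0.28 (95% interval −0.50 to −0.06, adjusted p = 0.111 by limma). PSMB7 passed under 3 of the 14 alternative analyses. PSMB6, which carries the caspase-like site, measured 9.41 and 9.38 with DMSO and 9.32 and 9.31 with DZNep, a log2 fold change of −0.08 (adjusted p = 0.69 by limma).

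Each of these has an inducible counterpart in the immunoproteasome. PSMB10, the counterpart of PSMB7, measured 8.20 and 8.15 with DMSO and 8.23 and 8.46 with DZNep, a log2 fold change of 0.17 (adjusted p = 0.423 by limma). The difference of log2 intensity between PSMB7 and PSMB10 on the same array was 2.02 and 1.95 with DMSO and 1.66 and 1.42 with DZNep. PSMB8 and PSMB9, counterparts of PSMB5 and PSMB6 that the choice of genes left out, both had a log2 fold change of −0.11 (adjusted p = 0.57 by limma for each). The difference between PSMB5 and PSMB8 was −1.68 and −1.58 with DMSO and −1.37 and −1.10 with DZNep, while that between PSMB6 and PSMB9 was 0.25 and 0.24 with DMSO and 0.30 and 0.24 with DZNep. Levels of different probe sets cannot be set against each other, so only the movement of such a difference between groups carries information, and it was not tested.

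Among the non-catalytic beta subunits PSMB4 had the lowest value, 11.70 and 11.73 with DMSO and 11.53 and 11.55 with DZNep (log2 fold change −0.17, adjusted p = 0.33 by limma). The groups of PSMB4 do not overlap, but its log2 fold change was −0.05 under quantile normalization. PSMB2 (−0.10), PSMB3 (−0.09, and 0.0046 under quantile normalization) and PSMB1 (0.01) had overlapping groups. So had PSMB11, the catalytic subunit of thymic epithelium, whose log2 intensities were between 5.45 and 5.61, low on these arrays. The mean log2 intensity of the alpha genes minus that of the beta genes was 0.14 and 0.15 with DMSO but −0.01 and −0.04 with DZNep, so the arrays of the 2 treatments separate on it, without a test.

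**Figure D3:**
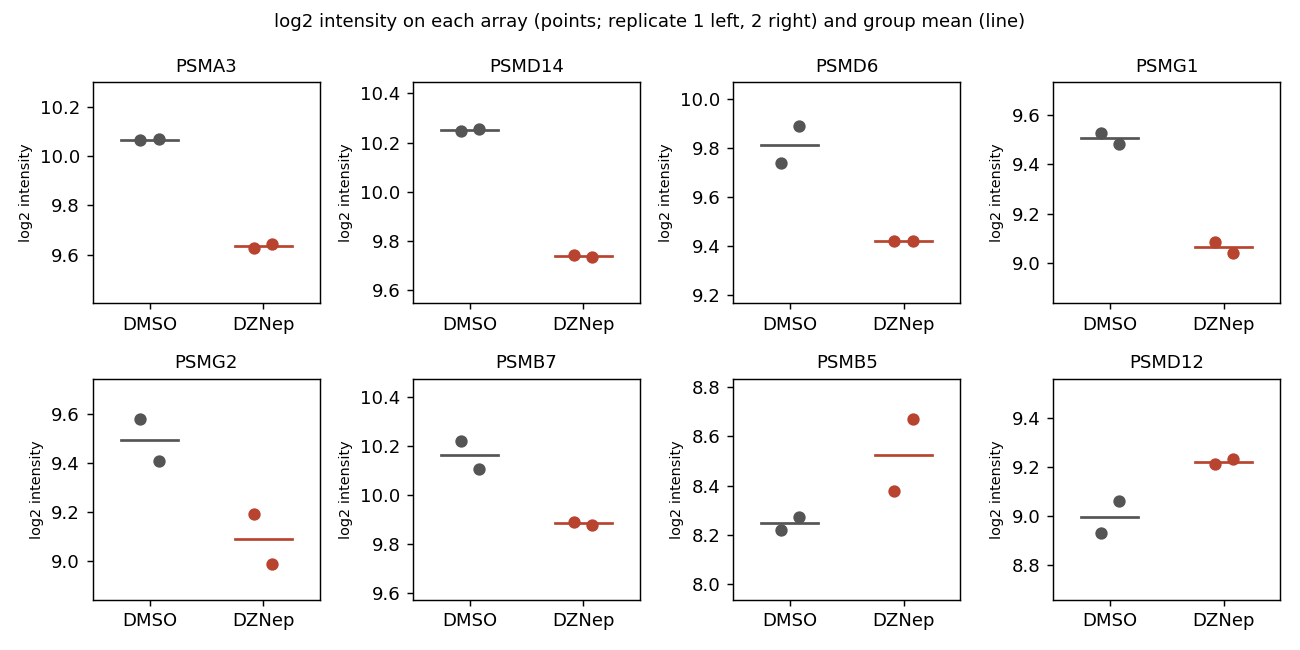
log2 intensity (y axis) on each array for 8 proteasome genes, DMSO and DZNep (x axis), as points with the group mean as a line. All panels span the same number of log2 units, although each starts at another level. The DZNep points lie below the DMSO points for PSMA3, PSMD14, PSMD6, PSMG1, PSMG2 and PSMB7 and above them for PSMB5 and PSMD12.

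In the regulatory particle 2 of 17 genes fell (11.8%, beside 6.68% of all genes and 14.3% of the brightest called lower), both of the lid. PSMD14, the metalloprotease that removes ubiquitin chains from substrates, had the lowest log2 fold change of the 43 genes. It measured 10.25 and 10.25 with DMSO and 9.74 and 9.74 with DZNep. Replicates were nearly identical, with means of 10.25 ± 0.00 and 9.74 ± 0.01 (SD, n = 2 arrays each). PSMD14 was 1.43-fold lower (−0.51 on the log2 scale, SE 0.09, adjusted p = 0.00833 by limma). It passed in all 14 alternative analyses, with values from −0.52 to −0.41 and a limma adjusted p of at most 0.0474.

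PSMD6, a structural lid subunit, measured 9.74 and 9.89 with DMSO and 9.42 and 9.42 with DZNep. The groups do not overlap and the DMSO arrays differ more than the DZNep arrays, 9.81 ± 0.11 against 9.42 ± 0.00 (SD, n = 2 arrays each). PSMD6 was 1.31-fold lower (−0.39 on the log2 scale, SE 0.10, adjusted p = 0.035 by limma). It passed under 8 of the 14 alternative analyses, and lost the call under quantile (adjusted p = 0.0892 by limma) or cyclic loess (0.0692) normalization, with 16 subtracted from the intensities (0.0799), and on leaving out DMSO replicate 2 (0.0664), DZNep replicate 1 (0.201) or DZNep replicate 2 (0.199).

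The other lid subunits were not alike. PSMD11 measured 9.60 and 9.55 with DMSO and 9.31 and 9.30 with DZNep, a log2 fold change of −0.27 (adjusted p = 0.109 by limma). PSMD11 passed under 3 of the 14 alternative analyses. PSMD12 measured 8.93 and 9.06 with DMSO and 9.21 and 9.23 with DZNep, and its groups do not overlap in the other direction (log2 fold change 0.22, 95% interval 0.01 to 0.44, adjusted p = 0.213 by limma). PSMD3, at 0.07, had both DZNep arrays slightly above both DMSO arrays, and PSMD8 had overlapping groups at 9.45 and 9.31 with DMSO and 9.27 and 9.48 with DZNep. SEM1, the small lid protein outside the naming rule, had a log2 fold change of 0.10 (adjusted p = 0.652 by limma).

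The base had 0 of 8 genes past the test (limma, 4 lower and 0 higher at an unadjusted p under 0.05), and in 7 of the 8 (87.5%) both DZNep arrays were below both DMSO arrays, as in 23.9% of all genes and 41.9% of the brightest. Of its ATPases, which unfold and thread the substrate, PSMC4 was lowest, at 9.67 and 9.67 with DMSO and 9.37 and 9.38 with DZNep (log2 fold change −0.30, 95% interval −0.51 to −0.09, adjusted p = 0.0754 by limma). Its replicates were close in both groups, and it passed without the dimmest 50% of genes and with either intensity trend. PSMC6 (−0.22), PSMC3 (−0.19) and PSMC2 (−0.05) also had groups that do not overlap, though PSMC2 turned to 0.05 under quantile and 0.03 under cyclic loess normalization. PSMC1 measured 10.02 and 9.93 with DMSO and 10.01 and 10.02 with DZNep (log2 fold change 0.04), and the groups overlap. PSMC1 and PSMC6 each have 2 probe sets, and the dimmer of them gave 0.06 for PSMC1 and −0.19 for PSMC6.

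The large scaffold subunits of the base had log2 fold changes of −0.29 for PSMD1 (adjusted p = 0.0959 by limma) and −0.24 for PSMD2 (0.199). PSMD4, a ubiquitin receptor, measured 9.28 and 9.25 with DMSO and 8.94 and 9.04 with DZNep, a log2 fold change of −0.27 (adjusted p = 0.114 by limma). Of the 14 alternative analyses, PSMD1 passed in 3, PSMD4 in 2 and PSMD2 in 0. All 3 had groups that do not overlap. ADRM1, the other ubiquitin receptor of the base and outside the naming rule, had a log2 fold change of −0.01 (adjusted p = 0.981 by limma).

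The PSMD symbols also cover 3 chaperones that assemble the base and leave the finished particle, with 0 of 3 past the test (limma, 0 also at an unadjusted p under 0.05) and values of both signs; their difference from the base was not tested. PSMD9 measured 8.29 and 8.06 with DMSO and 8.36 and 8.38 with DZNep (log2 fold change 0.19, adjusted p = 0.345 by limma). PSMD5 measured 9.66 and 9.46 with DMSO and 9.69 and 9.66 with DZNep (log2 fold change 0.12), and its groups overlap. PSMD10, also called gankyrin, measured 8.57 and 8.24 with DMSO and 8.18 and 8.23 with DZNep, where the groups nearly touch (log2 fold change −0.19, and −0.03 without DMSO replicate 1). In all 3 chaperones DMSO replicate 1 was above DMSO replicate 2, and the DMSO arrays lay farther apart than the DZNep arrays. PAAF1, a further base chaperone, had a log2 fold change of −0.27 (adjusted p = 0.205 by limma).

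Core and regulatory particle were not separated by these arrays. The median log2 fold change was −0.14 over 17 core genes, of which 1 fell, and −0.19 over 17 regulatory particle genes, of which 2 fell. These calls are 5.88% and 11.8%, beside 6.68% of all genes and 14.3% of the brightest called lower. The mean log2 intensity of the core minus that of the regulatory particle was −0.05 and 0.05 with DMSO and 0.05 and 0.01 with DZNep, which overlap. The core minus the activators was 0.25 and 0.33 with DMSO and 0.22 and 0.29 with DZNep, which overlap too. The core median shrank to −0.04 under quantile and −0.05 under cyclic loess normalization. That of the regulatory particle moved to −0.16 under quantile and stayed at −0.19 under cyclic loess normalization. Without DMSO replicate 1 the order turned, with −0.18 for the core and −0.12 for the regulatory particle.

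**Figure D4:**
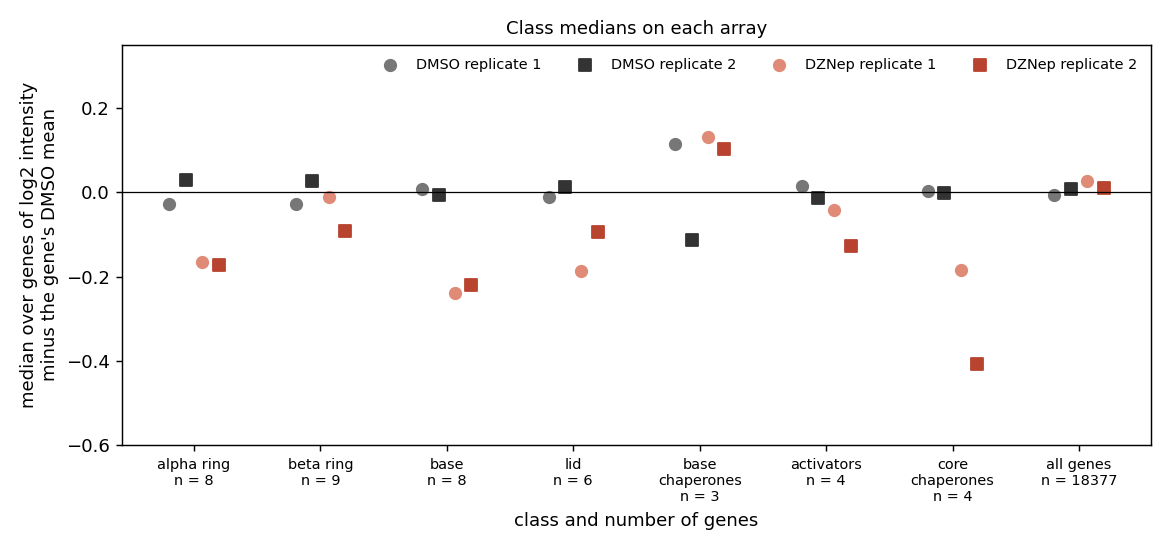
Median over the genes of a class of the log2 intensity minus the gene's own DMSO mean (y axis), for 7 classes and all genes (x axis), with 1 point per array. The alpha ring lies at −0.16 and −0.17 and the base at −0.24 and −0.22 on the DZNep arrays, whereas the base chaperones spread from −0.11 to 0.11 on the DMSO arrays alone.

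Among the 4 activators and the inhibitor 0 passed the test (limma, 1 lower at an unadjusted p under 0.05, PSME4). PSME1 and PSME2, which form the interferon-inducible PA28 ring, had log2 fold changes of −0.12 (adjusted p = 0.562 by limma) and −0.05 (0.832). PSME3, the nuclear PA28 gamma, measured 9.86 and 9.88 with DMSO and 10.01 and 9.99 with DZNep, a small separation upward (log2 fold change 0.13, adjusted p = 0.502 by limma). PSME4, the activator PA200 that is linked to histone turnover, measured 8.87 and 8.75 with DMSO and 8.64 and 8.51 with DZNep, a separation downward (−0.23, adjusted p = 0.217 by limma). The activator median was −0.08. PSMF1, the inhibitor PI31, had overlapping groups, 9.67 and 9.56 with DMSO and 9.63 and 9.55 with DZNep. Its log2 fold change was −0.02, and −0.08 to 0.06 over the 14 alternative analyses.

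Of the 4 chaperones of the core, which pair up to build and guide the alpha ring, PSMG1 fell and its partner PSMG2 lay at the threshold. PSMG1 measured 9.53 and 9.48 with DMSO and 9.08 and 9.04 with DZNep. The groups are well apart, 9.51 ± 0.03 against 9.06 ± 0.03 (SD, n = 2 arrays each). PSMG1 was 1.36-fold lower (−0.44 on the log2 scale, SE 0.09, adjusted p = 0.0167 by limma). The call ended without DZNep replicate 1 (adjusted p = 0.0852 by limma) or replicate 2 (0.147), with values of −0.47 and −0.42. PSMG2 measured 9.58 and 9.41 with DMSO and 9.19 and 8.99 with DZNep, without overlap but with a wider spread in both groups (log2 fold change −0.40, SE 0.11, adjusted p = 0.0505 by limma). It passed under 9 of the 14 alternative analyses, with limma adjusted p from 0.0105 to 0.448 over the 14 and a value of −0.30 without DZNep replicate 2.

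The genes of the second pair did not pass the test, and their difference from the first pair was not tested. PSMG3 measured 8.07 and 8.10 with DMSO and 8.20 and 8.14 with DZNep (log2 fold change 0.09, adjusted p = 0.661 by limma). PSMG4 measured 7.55 and 7.60 with DMSO and 7.51 and 7.23 with DZNep (log2 fold change −0.21, adjusted p = 0.345 by limma), where DZNep replicate 2 carries most of the distance. The difference between PSMG1 and PSMG3 on the same array went from 1.46 and 1.39 with DMSO to 0.88 and 0.90 with DZNep. POMP, which matures the beta ring, had a log2 fold change of 0.08 (adjusted p = 0.715 by limma), with both DZNep arrays above both DMSO arrays.

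Of 13 genes for proteins that bind the proteasome or help assemble it, 3 fell and 0 rose (23.1%, beside 6.68% of all genes and 14.3% of the brightest called lower), with a median of −0.26. No test of the list was made. ZFAND2A, a stress-inducible zinc finger protein that associates with the proteasome, measured 9.54 and 9.25 with DMSO and 8.45 and 8.66 with DZNep. It was 1.78-fold lower (−0.84 on the log2 scale, SE 0.12, adjusted p = 0.00305 by limma) and passed in all 14 alternative analyses. ECPAS, a scaffold that tethers core and regulatory particle, measured 9.94 and 9.66 with DMSO and 9.25 and 9.27 with DZNep (log2 fold change −0.54, adjusted p = 0.0171 by limma), and it too passed under all 14. UCHL5, a deubiquitinase of the regulatory particle, had a log2 fold change of −0.41 (adjusted p = 0.0273 by limma), a call that ended with 16 subtracted from the intensities (0.0654) or on leaving out DMSO replicate 1 (0.0635), DZNep replicate 1 (0.0898) or DZNep replicate 2 (0.288). The other proteasome deubiquitinase, USP14, had −0.26 (adjusted p = 0.118 by limma).

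Of 10 regulators of proteasome gene transcription, 1 rose and none fell, beside 3.62% of all genes called higher and 6.68% lower. NFYB, a subunit of the CCAAT-binding factor NF-Y, measured 8.72 and 8.75 with DMSO and 9.42 and 9.25 with DZNep, 1.52-fold higher (0.60 on the log2 scale, SE 0.10, adjusted p = 0.00563 by limma), and passed in all 14 alternative analyses. The partners NFYA and NFYC, at −0.04 and −0.09 on the log2 scale, did not pass. NFE2L1 measured 9.593 and 9.003 with DMSO and 8.657 and 8.802 with DZNep. Its groups do not overlap but the DMSO arrays lie far apart, and the log2 fold change of −0.57 missed the threshold (limma, SE 0.17, adjusted p = 0.0672). It was −0.86 when DMSO replicate 2 was left out and −0.27 when DMSO replicate 1 was. NFE2L1 passed with the replicate number as a block (adjusted p = 0.000379 by limma), but its arrays do not follow that block. Replicate 1 was the higher with DMSO and the lower with DZNep, so this value is no support from pairing for NFE2L1. NFE2L2, its relative of the oxidative stress response, had 0.08 (adjusted p = 0.786 by limma).

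Upstream of the proteasome, the ubiquitin gene UBB had a log2 fold change of 0.00 and the activating enzymes UBA1 and UBA6 had −0.05 and −0.19, 0 of 3 past the test (limma, 0 also at an unadjusted p under 0.05). That list held 6 genes, of which 3 were not measured. Of 11 genes for ubiquitin shuttles and the unfoldase VCP, 2 fell and 1 rose, with a median of −0.15. Over all genes 6.68% were called lower and 3.62% higher. VCP itself, which extracts ubiquitin-tagged proteins from complexes and membranes, measured 10.38 and 10.31 with DMSO and 9.93 and 9.97 with DZNep (log2 fold change −0.39, adjusted p = 0.0293 by limma). That call ended with 16 subtracted from the intensities (0.0701) or on leaving out DMSO replicate 1 (0.0631), DZNep replicate 1 (0.238) or DZNep replicate 2 (0.16). Its cofactor FAF1 had −0.50 (adjusted p = 0.0125 by limma, and 0.0694 without DZNep replicate 1). The shuttle UBQLN2 rose by 0.53 on the log2 scale (adjusted p = 0.00873 by limma, and 0.0514 without DZNep replicate 2).

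Other complexes that most cells make all the time gave medians on either side of that of the proteasome. The COP9 signalosome and the translation factor eIF3 are built from relatives of lid subunits. Of 10 COP9 genes 2 fell (COPS2 at −0.41 and COPS3 at −0.38), with a median of −0.03. Of 12 eIF3 genes 1 fell (EIF3M at −0.37), with a median of −0.20, and 11 of the 12 had both DZNep arrays lower. Of 8 genes of the cytosolic chaperonin CCT, 3 fell (CCT8 at −0.46, CCT2 at −0.36 and TCP1 at −0.35), with a median of −0.32 and both DZNep arrays lower in all 8. Both DZNep arrays were lower in 23.9% of all genes and 41.9% of the brightest, and 6.68% and 14.3% of them were called lower. All 6 calls (limma adjusted p from 0.0146 for CCT8 to 0.0475 for TCP1) ended without DZNep replicate 1 (from 0.0525 to 0.237) and without DZNep replicate 2 (from 0.149 to 0.404), and 5 of them, CCT8 excepted, also without DMSO replicate 1 (from 0.0592 to 0.085) or under quantile normalization (from 0.0553 to 0.167). The proteasome median of −0.15 lies within the range of these 3 complexes, and the differences were not tested.

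The 4 arrays had median log2 intensities of 6.99 to 7.07 over all probe sets, and their number limits the precision: the standard error of a proteasome gene was 0.09 to 0.12. Over all genes 665 were called higher and 1227 lower. Markers of the monocytic line were measured for 9 of 10, up to a log2 intensity of 12.82 for LYZ, though CD14 was only at 6.55 to 7.07. Of these LYZ (0.53 on the log2 scale) and CSF1R (0.47) rose and FLT3 (−0.94) fell. Markers of T, B, epithelial and erythroid cells were measured for 9 of 12, the highest KRT18 at up to 8.94 and the T cell genes at no more than 6.46. The summed intensity of the myeloid markers was 12027 and 11923 with DMSO and 12494 and 12251 with DZNep. Its brightest markers, LYZ and FLT3, moved in opposite directions within this sum. For the T cell markers the sum was 188 and 198 with DMSO and 208 and 185 with DZNep. The part of these markers in the proteasome values was not tested. EZH2, the methyltransferase that DZNep is used to deplete, was at 9.702 and 9.660 with DMSO and 8.847 and 8.996 with DZNep.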

How the data were processed

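Per the labels' protocols, total RNA of 4 MOLM-14 samples was amplified and labelled for Affymetrix whole-transcript arrays. The deposited intensity values are linear and, per the submitters' processing notes, come from RMA, whose version is not given in the sources used here. They run from 18.1 to 16502 with no missing value. If a constant was added to them, which is unknown, the folds of dim genes are understated. Their log2 was taken with no pseudocount, no further normalization and no filter. Probe sets take their names from GEO's platform annotation: of 28869, 19310 have 1 symbol, 1752 several and 7807 are not listed. Each gene is represented by its brightest probe set. All 43 proteasome genes matched RefSeq by gene ID, with 0 symbols changed.

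Groups were compared in R 4.3.3 by lmFit and eBayes of limma 3.58.1 (group as the only term, two-sided) over 18377 genes, with Benjamini-Hochberg adjustment and a threshold of 0.05. An exact permutation test of 2 arrays against 2 cannot go below p = 0.333. On simulated arrays of this comparison with 18377 genes, 30.4% of log2 changes of 0.5 and 99.1% of changes of 1 were recovered. Far fewer genes were changed in that simulation than were called in these data, which makes the adjusted threshold stricter. These shares therefore do not carry over to the data. The proteasome set is described by counts and medians, without a test. The genes and lists (8 beside the members, 69 of 76 entries measured, the pair PSMB8 and PSMB9 among them) were chosen with earlier results of these data known. Genes named by rule were those called, the extremes of each class, the catalytic subunits and the leading members of each list; the remaining members are given for completeness. Same-numbered arrays of the groups deviated from their group means with a correlation of −0.22, so the numbers were not taken as pairs. Alternatives were removal of the dimmest 25% or 50% of genes, the replicate number as a block, 3 normalizations, 2 variance trends, subtraction of 16, the mean over probe sets, and leaving out each array.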

Additional observations from a re-analysis of the deposited data

How the results depend on the processing

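Of the 641 values of single proteasome genes under 15 alternatives, 604 kept their side of the threshold, 10 lost the call, 27 gained it and 0 called values changed sign. Medians over the set were −0.17 without the dimmest 25% or 50% of genes, −0.16 with median centring, −0.0677 with quantile and −0.0835 with cyclic loess normalization. For the core, quantile normalization gave −0.0352 and cyclic loess −0.0473, and for the regulatory particle quantile normalization gave −0.16. The cause of these shifts was not tested. Proteasome genes called were 4 in the fit reported, 10 without the dimmest 50% of genes, 11 with an intensity trend and 10 with a robust one. Over all genes the share called lower in the same fits was 6.68%, 16.1%, 9.09% and 9.14%.

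Leaving out 1 array in turn gave 1 to 4 proteasome genes called, medians of −0.16 to −0.11 for the set, −0.18 to −0.10 for the core, −0.24 to −0.12 for the regulatory particle and −0.13 to −0.04 for the activators. Over all genes it gave 1173 to 2438 calls, 734 to 1662 lower and 336 to 776 higher, with the lowest counts without a DZNep array, where the lone array is taken to vary as much as the arrays of the other treatment. With the replicate number as a block 5 proteasome genes were called lower (PSMG2 added) and 2107 genes in all. With the crossed pairing, added after seeing the data because same-numbered arrays deviated in opposite directions, 6 proteasome genes were called, and 1690 genes lower and 1034 higher overall.

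Probe sets near the lowest intensity, PSMA8 and PSMB11 among them, give little information on change.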
